A study of Mus musculus with 19 samples.

Results

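The genes described here encode the standard subunits of the 26S proteasome: 14 genes of the 20S core particle and 17 genes of the 19S regulatory particle. The list was drawn up by name, from known 20S and 19S subunits. All 31 were found by Ensembl identifier among the 55487 genes of the deposited count table, and all 31 were among the 15138 genes with enough counts to be tested.

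RNASeq was performed on mouse hepatic stellate cells (HSCs), the vitamin A-storing cells of the liver that become matrix-producing myofibroblasts upon injury or plating. HSCs from healthy male Balb/c mice of 23 to 24 weeks were sorted by the ultraviolet autofluorescence of their vitamin A droplets, with no other treatment or allele in any group. Freshly isolated cells were lysed without culture (0 h, 2 samples), and the others were kept on collagen-coated 24-well plates for 3, 6, 12, 18 or 96 h (3 samples each) or 24 h (2 samples). The comparisons ask how the subunit transcripts move during the first hours and days of in vitro activation. Cultures received Dulbecco's modified Eagle's medium with 10% serum, 1% antibiotics and 1% glutamine at 37 °C and 5% CO2, with fresh medium at 3 h and 24 h, and each sample joined 2 technical repeats. The samples carry the labels M1, M2 and M3, called isolations 1, 2 and 3 here. M1 and M3 share 1 isolation date in the labels, and whether they are separate isolations is not given. Isolation 1 has no 0 h sample and isolation 3 no 24 h sample, and the number of mice per isolation is not given in the sources used here.

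Total counts per sample ran from 2073171 (0 h, isolation 3) to 7690892 (12 h, isolation 3). A count of 3, taken as the smallest level that can be shown, was worth between 0.386 and 1.51 TMM CPM, a gene's count scaled to a fixed library total after edgeR's TMM correction for library composition, and covers counting error only. The 2 samples at 0 h correlated with an r of 0.768 over genes. All 10 HSC markers had counts at every time, with a mean summed level of 33125 TMM CPM at 0 h and between 2111 and 34556 at later times. The summed level of 8 hepatocyte markers was 3504 and 7453 at 0 h and 25.4 to 91.5 at 96 h, and that of 9 Kupffer cell and leukocyte markers 339 and 379 against 11.2 to 22.9. The sum of 7 sinusoidal endothelial markers was 467 and 657 at 0 h, 679, 790 and 2364 at 3 h and 6.93 to 119 at 96 h, with isolation 1 the highest at every time it was sampled. Among 5 cholangiocyte markers, Krt19 and Krt7 had no counts in any group. The part of these other cells in the values below was not tested, and in bulk RNA fewer cells of a type and less RNA per cell cannot be told apart.

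The proteasome degrades proteins tagged with ubiquitin chains. Its 20S core is a barrel of 4 stacked rings, with alpha rings (Psma genes) that gate the entrance and beta rings (Psmb genes) whose catalytic subunits cut the chain. The 19S particle caps the barrel: its base holds a ring of ATPases (Psmc genes) that unfold and thread the substrate, and its lid (Psmd genes) removes the ubiquitin. HSC activation brings a large rise in protein synthesis and secretion, and the proteasome is one of the routes by which misfolded and short-lived proteins are removed.

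The summed level of the 31 subunit genes was higher in every cultured sample than in freshly isolated cells, and its mean was highest at 24 h. It was 2909 ± 71.9 TMM CPM (SD, n = 2) at 0 h, and 3177 ± 199, 4020 ± 268, 4763 ± 581 and 5104 ± 364 at 3, 6, 12 and 18 h (n = 3 each). It reached 5692 ± 701 at 24 h (n = 2) and stood at 5072 ± 73.0 at 96 h (n = 3). The lowest cultured sample, at 3 h, was at 3050, and the higher 0 h sample at 2960. Relative to the mean at 0 h, the sum was 1.09, 1.38, 1.64, 1.75, 1.96 and 1.74 times as high at 3, 6, 12, 18, 24 and 96 h. Without TMM scaling, the 31 genes took 0.255% and 0.284% of all counts at 0 h and 0.579% and 0.701% at 24 h. The ratio varied along the particle. At 24 h, the summed level was 2.36 times that at 0 h for the lid, 2.31 times for the ATPase ring and 2.21 times for the rest of the base, against 1.67 times for the alpha ring, 1.59 times for the catalytic and 1.54 times for the structural beta subunits. The ratio for the ATPase ring includes Psmc4, which had no counts at 0 h and so adds to the 24 h sum only. These ratios of sums are descriptions, and the difference between the groups of subunits was not tested.

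**Figure D1:**
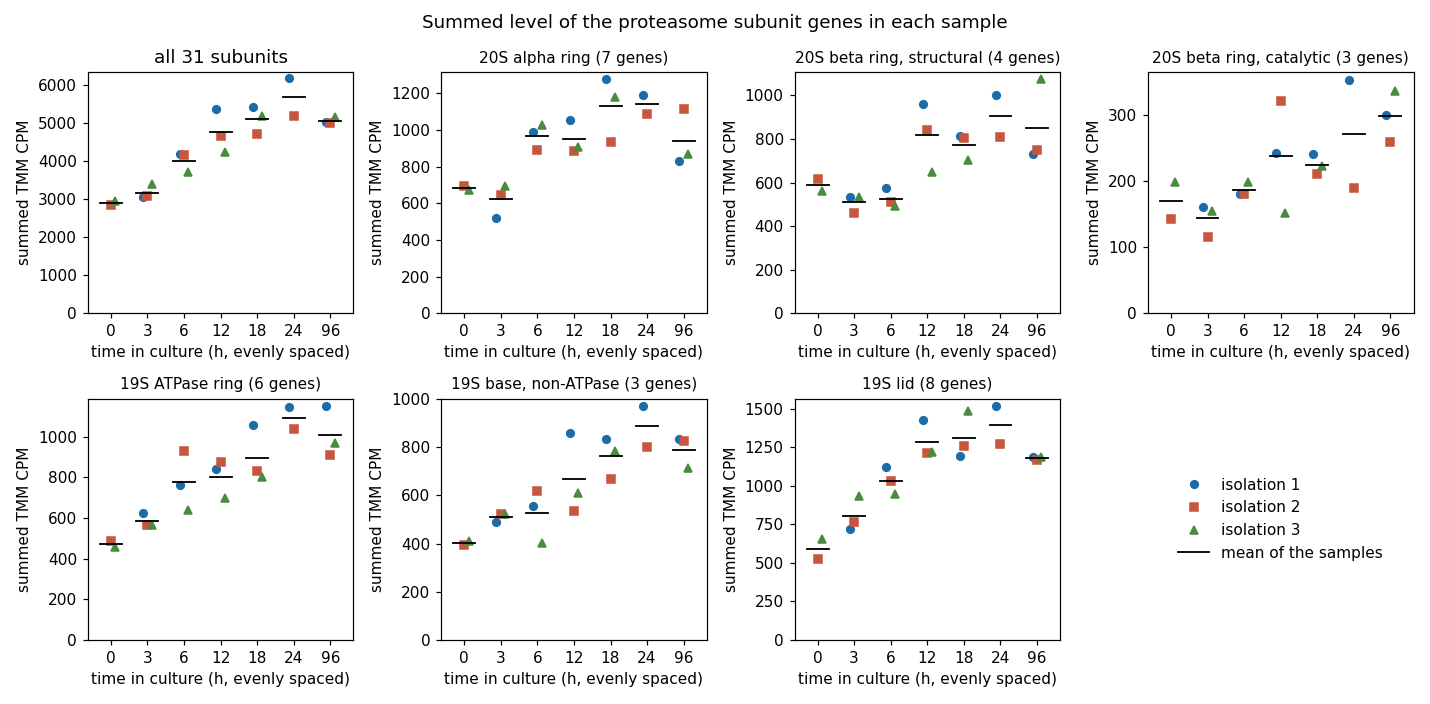
Summed level (TMM CPM, linear axes from 0) of all 31 subunit genes and of each of the 6 groups of subunits against time in culture, with evenly spaced times; each marker is 1 sample, its shape and colour give the isolation and the black line is the mean of the samples. The sum of all 31 genes climbs from 2909 at 0 h to 5692 at 24 h, and the catalytic beta subunits scatter most at 12 h and 24 h.

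The subunits that passed the test against freshly isolated cells were mostly higher in culture. With edgeR's quasi-likelihood test at an adjusted p (Benjamini-Hochberg over all genes tested) under 0.1, 2 of the 31 subunit genes were higher at 3 h, where 4.67% of all genes tested were higher, and 7 at 6 h, where the share of all genes was 7.91%. At 12 h, 10 were higher, a share of 32.3% beside 9.78% of all genes. At 18 h and 24 h, 12 were higher, 38.7% in each case, beside 8.67% and 6.12% of all genes. At 96 h, 10 were higher, beside 6.59% of all genes. One gene was lower at 3 h (1.52% of all genes) and 1 at 6 h (4.68%). From 12 h onwards none was lower, whereas 9.58%, 8.79%, 4.1% and 5.44% of all genes were lower at 12, 18, 24 and 96 h; no subunit gene was lower at an unadjusted p under 0.05 or by DESeq2 at these times either. Only part of the calls also exceeded a 2-fold change: 2, 2, 6, 9, 9 and 8 genes in the order of the times, Psmc4 without counts at 0 h included, beside 4.19%, 6.98%, 8.6%, 7.64%, 5.65% and 5.83% of all genes. All 6 comparisons use the same 2 samples at 0 h and are therefore not independent of each other.

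The size of the change was modest for most subunits. The median log2 fold change of the 31 genes was 0.09, 0.52, 0.77, 0.83, 0.92 and 0.74 at 3, 6, 12, 18, 24 and 96 h, beside a median over all genes of 0 at the first 5 times and 0.07 at 96 h. It is the same with Psmc4 set at its lower bound, which lies above the median. The fold change was above 0 for 19, 26, 30, 30, 30 and 31 genes in the same order, where 47.2%, 47.3%, 46.2%, 46.8%, 49.2% and 51.6% of all genes were above 0. All samples lay above both samples at 0 h for 7, 14, 17, 24, 28 and 21 subunit genes, beside 17.1%, 17.7%, 20.3%, 19.1%, 26.1% and 22.2% of all genes. Within isolations, where the 0 h sample of isolation 2 or 3 was compared with its own cultures, 15, 19, 20, 28 and 25 subunit genes were higher in both isolations at 3, 6, 12, 18 and 96 h, beside 25.8%, 26.3%, 27.5%, 27.3% and 30.4% of all genes tested. In both isolations 7, 4, 2, 2 and 0 subunit genes were lower, beside 26.3%, 28.2%, 29.6%, 28.5% and 26.3%. At 24 h, isolation 2 alone allowed this comparison, and 29 subunit genes were higher and 2 lower, beside 44.2% and 42.8% of all genes.

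**Figure D2:**
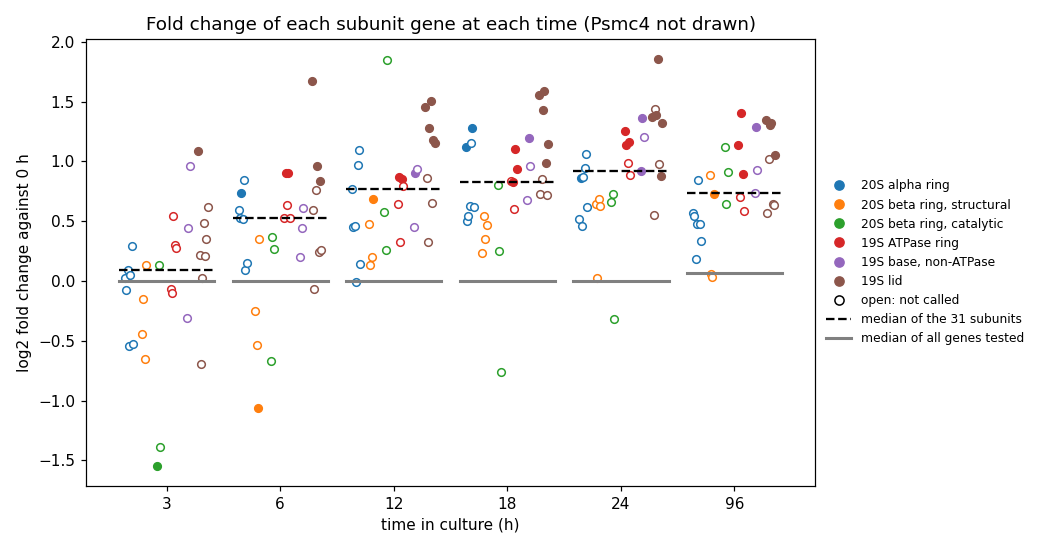
Log2 fold change against 0 h of 30 of the 31 subunit genes at each time in culture, coloured by group of subunits; filled points passed the test, open points did not, the dashed line is the median of the 31 subunits and the grey line that of all genes tested. Psmc4 is not drawn because it had no counts at 0 h. The dashed line moves from 0.09 at 3 h to 0.92 at 24 h while the grey line stays at 0 and reaches 0.07 at 96 h.

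Fewer subunits were called higher without either of the 2 samples at 0 h, which leaves 1 sample at that time. The share of all genes was not computed for fits without 1 sample or with a replicate block. A loss particular to the subunits and a general loss of calls thus cannot be told apart. Over the 19 fits without 1 sample, the median log2 fold change of the subunits was 0.04 to 0.22 at 3 h, 0.42 to 0.54 at 6 h and 0.55 to 0.82 at 12 h. It was 0.69 to 0.87 at 18 h, 0.83 to 1.05 at 24 h and 0.73 to 0.85 at 96 h. Fewer also passed at 24 h without either sample of that time, and at 96 h the count of higher genes was 5 without isolation 3. The count at 3 h was 0 or 1 in all 19 fits without 1 sample except those without isolation 1 or 2 at 6 h or isolation 3 at 96 h. The count at 6 h was between 2 and 4 without isolation 1 or 3 at 3 h, isolation 1 or 2 at 6 h, isolation 2 at 12 h or either sample at 24 h. With the isolation number as a replicate block, the counts were 1, 2, 8, 11, 8 and 8, and the blocked adjusted p is given below beside each subunit call against 0 h that it ended. Some calls stood whichever of the 19 samples was left out: Psmd11 at 6, 12, 18, 24 and 96 h, Psmd3 at 12, 18 and 24 h, and Psmd2 at 18, 24 and 96 h.

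For the genes described next, the values of all samples of a time are given from the lowest to the highest, in TMM CPM. The libraries were made from the 3′ ends of transcripts and levels were not divided by length, so that they compare times and not genes. The genes are all 3 catalytic subunits and those with the largest and the smallest log2 fold change at 12 h in each other group of subunits. Any further subunit given with values, such as Psmb3, Psmd2, Psmd11, Psmd8 or Psmd14, was chosen after its values were seen.

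Among the 7 alpha ring subunits, 1 was higher at 6 h (Psma3), 2 at 18 h (Psma1 and Psma6) and 1 at 24 h (Psma2), and none at the other times. Of all genes tested, 7.91%, 8.67% and 6.12% were higher at 6, 18 and 24 h. The alpha subunits form the outer rings of the barrel, whose tails close the pore until a regulator docks. Psma6 had the largest fold change of the group at 12 h. It was at 24.6 and 56.2 TMM CPM at 0 h, at 29.5, 51.3 and 66.6 at 3 h and at 36.9, 41.2 and 50.3 at 6 h. At 12 h it was at 51.5, 102 and 104, at 18 h at 71.1, 111 and 112, at 24 h at 80.7 and 87.7, and at 96 h at 48.5, 52.9 and 66.5. Its samples at 18 h and 24 h thus lay above both samples at 0 h, while those at 12 h and 96 h overlapped them. Psma6 had a log2 fold change of 1.09 ± 0.44 (SE) at 12 h, with an adjusted p of 0.122, and 1.28 at 18 h with an adjusted p of 0.0772 (edgeR). The call at 18 h was lost in 8 of the 19 fits that leave out 1 sample: the 0 h, 3 h, 6 h and 12 h samples of isolation 2, the 18 h samples of isolations 1 and 3, and either sample of 24 h.

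Psma4 had the smallest fold change of the alpha ring at 12 h. It was at 69.3 and 88.5 TMM CPM at 0 h, at 51.2, 51.4 and 59.7 at 3 h, and at 83.3, 128 and 129 at 6 h. At 12 h it was at 52.8, 63.1 and 120, at 18 h at 101, 127 and 137, at 24 h at 122 and 167, and at 96 h at 93.8, 96.9 and 139. All samples at 3 h were below, and all samples at 18, 24 and 96 h above, both samples at 0 h. Its log2 fold change at 12 h was -0.01 ± 0.34 (adjusted p of 1, edgeR), and no comparison with 0 h passed the test. From 3 h to 6 h, Psma4 rose by 1.07 on the log2 scale, with an adjusted p of 0.0717 (edgeR). Psma2, the alpha subunit called at 24 h, was 0.86 higher on the log2 scale with an adjusted p of 0.0332. Psma3, the alpha subunit called at 6 h, was 0.74 higher with an adjusted p of 0.0749, and of 0.117 with the replicate block and 0.115 by DESeq2. The ends of Psma3, Psma4 and Psma5 match processed pseudogenes almost perfectly, so that their counts are uncertain.

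The 4 structural beta subunits complete the inner rings without cutting substrates themselves. Of these, Psmb4 was higher at 12 h and 96 h, and Psmb3 was lower at 6 h. Psmb4 was at 241 and 248 TMM CPM at 0 h, at 233, 276 and 296 at 3 h, and at 292, 303 and 338 at 6 h. It was at 284, 407 and 489 at 12 h, at 299, 334 and 379 at 18 h, at 311 and 443 at 24 h, and at 341, 341 and 535 at 96 h. From 6 h onwards every sample lay above both samples at 0 h, and the spread among samples of a time widened. Psmb4 had a log2 fold change of 0.69 ± 0.25 at 12 h, with an adjusted p of 0.087, and 0.73 at 96 h with an adjusted p of 0.095 (edgeR). The call at 12 h was lost in 10 of 19 fits without 1 sample, and that at 96 h in 15, among them, for both, those without either sample at 0 h. With the replicate block the adjusted p was 0.144 and 0.141, and with DESeq2 0.211 and 0.118, so that neither call held.

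Psmb2 had the smallest fold change of the structural beta subunits at 12 h, and its groups overlapped at nearly every time. It was at 27.6 and 48.2 TMM CPM at 0 h, at 30.5, 32.8 and 38.8 at 3 h, and at 18.5, 26.5 and 33.5 at 6 h. At 12 h it was at 28.3, 39.4 and 56.8, at 18 h at 50.4, 54.4 and 60.9, at 24 h at 26.7 and 50.2, and at 96 h at 30.6, 38.1 and 49.2. The 18 h samples were the only ones that all lay above both samples at 0 h. Its log2 fold change at 12 h was 0.13 ± 0.46 (adjusted p of 0.929, edgeR).

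Psmb3 fell by 6 h and rose again by 12 h. It was at 165 and 226 TMM CPM at 0 h, at 116, 122 and 136 at 3 h and at 65.0, 87.0 and 129 at 6 h. It stood at 186, 244 and 246 at 12 h, at 183, 246 and 320 at 18 h, at 304 and 327 at 24 h, and at 164, 166 and 269 at 96 h. All samples at 3 h and 6 h lay below both samples at 0 h, and both samples at 24 h lay above them. At 6 h it fell by 1.06 ± 0.30 on the log2 scale (adjusted p of 0.0363, edgeR), a call that was lost without the 0 h sample of isolation 2 or the 6 h sample of isolation 3. From 6 h to 12 h it rose by 1.27 ± 0.28 (adjusted p of 0.0325, edgeR), a call that was lost without the 6 h sample of isolation 3 or the 12 h sample of isolation 2. A pseudogene of Psmb3 with a near-identical end had 493 counts over all samples.

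The 3 catalytic beta subunits carry the protease activities: Psmb5 the chymotrypsin-like, Psmb6 the caspase-like and Psmb7 the trypsin-like one. None of the 3 was higher in any comparison with 0 h by edgeR, and Psmb5 was lower at 3 h. At an unadjusted p under 0.05, 1 of the 3, Psmb5, was higher, at 96 h only, where DESeq2 also called 1. Psmb5 (GRCm38 chr14:54614119-54618022, minus strand) was at 36.4 and 61.3 TMM CPM at 0 h, at 14.6, 14.9 and 20.5 at 3 h, and at 22.5, 25.3 and 43.8 at 6 h. It was at 59.0, 75.7 and 83.4 at 12 h, at 68.1, 80.6 and 107 at 18 h, at 45.4 and 109 at 24 h, and at 92.3, 106 and 119 at 96 h. All samples at 3 h lay below both samples at 0 h, and all samples at 18 h and 96 h above them. It fell by 1.54 ± 0.41 on the log2 scale at 3 h (adjusted p of 0.0436, edgeR), and this call was lost without the 0 h sample of isolation 3 or the 3 h sample of isolation 1 or 2. The log2 fold change was 0.58 ± 0.42 at 12 h (adjusted p of 0.399) and 1.12 ± 0.43 at 96 h (adjusted p of 0.133), and the test of a difference between any of the 7 times gave an adjusted p of 0.00112.

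Psmb5 shares its 3′ end with the processed pseudogene Gm3375, to which 2372 counts were assigned, 40.5% of the 5863 counts of Psmb5 itself. The sum of the 2 genes was 50.4 and 79.8 TMM CPM at 0 h, 21.6, 25.4 and 32.5 at 3 h, and 127, 150 and 180 at 96 h. The sum was thus also lower at 3 h and higher at 96 h than in both samples at 0 h.

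Psmb6 (chr11:70525367-70527858, plus strand) passed the test against 0 h at no time. It was at 96.5 and 131 TMM CPM at 0 h, at 99.7, 130.0 and 143 at 3 h, and at 137, 143 and 159 at 6 h. It was at 90.7, 157 and 161 at 12 h, at 124, 140.4 and 140.6 at 18 h, at 136 and 239 at 24 h, and at 107, 198 and 227 at 96 h. Only the samples at 6 h and 24 h all lay above both samples at 0 h, and the log2 fold change at 12 h was 0.26 ± 0.34 (adjusted p of 0.678, edgeR). Psmb7 (chr2:38588036-38644087, minus strand) had few counts, at 7.53 and 9.03 TMM CPM at 0 h and at 1.68, 2.99 and 4.79 at 3 h. It was at 0, 11.9 and 17.9 at 6 h, at 1.60, 6.72 and 81.2 at 12 h, at 1.75, 2.42 and 10.5 at 18 h, at 5.79 and 7.46 at 24 h, and at 3.71, 10.3 and 32.9 at 96 h. A single sample, isolation 2, stood far above the others at 12 h, and the log2 fold change of 1.85 ± 1.77 (adjusted p of 0.545, edgeR) became -1.02 without it.

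Proteasome genes are known targets of the CNC-bZIP factors Nfe2l1 and Nfe2l2, which bind antioxidant response elements, and of NF-Y, which binds CCAAT boxes. RefSeq promoter windows (GRCm38.p6, 250 bases before to 50 after the annotated start) were at hand for 25 of the 31 genes. The antioxidant response element core TGACNNNGC, searched on both strands, was found in the windows of 4 of these 25 genes (16%) and in 12.4% of all 32851 windows. CCAAT, also on both strands, was found for 10 of the 25 (40%) and in 37.4% of all windows. The 25 genes had 27 windows and a hit in any window counted for a gene, whereas the share of all is by window. The 2 kinds of share are thus not strictly alike, and no difference between them was tested. The stretches around the 4 cores are printed because they place the motif in 2 of the 3 catalytic subunit genes next to the start; capitals mark the core, in the reverse complement for Psmc6 and Psmd12. The core begins 47 bases before the start in Psmb5 (chr14:54618009-54618092, minus strand), 9 before it in Psmb6 (chr11:70525298-70525356, plus strand), and lies 227 before it in Psmc6 (chr14:45329574-45329630, plus strand) and 247 before it in Psmd12 (chr11:107479278-107479314, plus strand).
Psmb5: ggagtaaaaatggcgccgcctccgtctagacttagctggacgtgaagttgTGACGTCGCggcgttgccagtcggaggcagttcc
Psmb6: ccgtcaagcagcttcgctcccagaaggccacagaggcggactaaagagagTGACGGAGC
Psmc6: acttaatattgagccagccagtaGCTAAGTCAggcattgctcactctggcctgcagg
Psmd12: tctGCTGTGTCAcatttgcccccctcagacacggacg
Of these 4 genes, Psmc6 was called higher at 1 time (18 h, log2 fold change 0.94, adjusted p of 0.0709, edgeR), Psmb5 was called lower at 3 h, and Psmb6 and Psmd12 passed the test at no time against 0 h.

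In the ring of 6 ATPases, 1, 3, 3, 4, 4 and 4 genes were higher at 3, 6, 12, 18, 24 and 96 h. Of all genes tested, 4.67%, 7.91%, 9.78%, 8.67%, 6.12% and 6.59% were higher at the same times. Psmc5 passed at every time from 6 h onwards, Psmc2 from 6 h to 24 h, Psmc1 at 24 h and 96 h, Psmc6 at 18 h and Psmc3 at 96 h. With the replicate block, Psmc5 passed only at 18 h, with adjusted p of 0.138, 0.131, 0.105 and 0.155 at 6, 12, 24 and 96 h, and Psmc2 only at 12 h, with 0.11, 0.145 and 0.11 at 6, 18 and 24 h. Without 1 sample, the Psmc5 calls at 6 h and 96 h stood in 6 and 5 of 19 fits, and the Psmc2 calls at 6 h and 18 h in 6 and 4. Psmc4 (chr7:28041707-28050101, minus strand) was called at all 6 times and had no counts in either sample at 0 h. It was at 24.8, 47.4 and 49.4 TMM CPM at 3 h and at 0, 37.1 and 72.2 at 6 h. Its samples stood at 42.2, 49.7 and 59.1 at 12 h and at 48.7, 56.2 and 60.0 at 18 h. It was at 74.3 and 99.98 at 24 h and at 0, 70.3 and 102 at 96 h. Psmc4 thus had either 0 counts or a level well above the floor in each sample, with 0 counts also in isolation 1 at 6 h and isolation 3 at 96 h. Set against 3 counts per library at 0 h, the mean level was at least 35.9-fold, 32.3-fold, 44.5-fold, 48.7-fold, 77.2-fold and 50.7-fold higher at 3, 6, 12, 18, 24 and 96 h. What the zeros stand for could not be told from the table, so the bounds describe these libraries. The adjusted p ranged from 0.0364 at 12 h to 0.0918 at 3 h (edgeR), and all 6 calls were lost without either sample at 0 h. The call at 3 h stood in 3 of 19 fits without 1 sample and had an adjusted p of 0.139 with the replicate block, that at 6 h was also lost without the 6 h sample of isolation 2, and the test of a difference between any of the 7 times was not passed (adjusted p of 0.242).

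Psmc3 had the smallest fold change of the ATPases at 12 h. It was at 102 and 120 TMM CPM at 0 h, at 156, 161 and 167 at 3 h, and at 119, 185 and 212 at 6 h. It was at 74.2, 118 and 225 at 12 h, at 114, 183 and 208 at 18 h, at 190.1 and 250.4 at 24 h, and at 231, 307 and 342 at 96 h. All samples at 3, 24 and 96 h lay above both samples at 0 h, and the samples at 12 h spread on both sides of them. Psmc3 had a log2 fold change of 0.32 ± 0.38 at 12 h (adjusted p of 0.646) and 1.40 at 96 h (adjusted p of 0.0373, edgeR), the latter lost without either sample at 0 h or isolation 3 at 96 h. Psmc5 had a log2 fold change of 0.86 at 12 h (adjusted p of 0.0804), 1.11 at 18 h (0.0277) and 1.16 at 24 h (0.0426, edgeR), and Psmc2 one of 0.87 at 12 h (0.0777) and 1.14 at 24 h (0.0497). Each of these 5 calls was lost without the 0 h sample of isolation 2.

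The base also holds 3 subunits that are no ATPases: the scaffolds Psmd1 and Psmd2 and the ubiquitin receptor Psmd4. Psmd2 was higher from 12 h onwards, Psmd1 at 24 h and Psmd4 at no time. Psmd2 (chr16:20651652-20663414, plus strand), which docks proteins with ubiquitin-like domains, was at 111 and 140 TMM CPM at 0 h, at 136, 170 and 206 at 3 h and at 151, 167 and 192 at 6 h. It was at 200.3, 234 and 271 at 12 h, at 269, 294 and 297 at 18 h, at 311 and 333 at 24 h, and at 286, 304 and 329 at 96 h. From 6 h onwards every sample lay above both samples at 0 h, and at 18, 24 and 96 h the samples lay between 269 and 333. Psmd2 had a log2 fold change of 0.91 ± 0.21 at 12 h (adjusted p of 0.00681), 1.36 at 24 h (0.000827) and 1.29 ± 0.21 at 96 h (0.000692, edgeR), of which the first was lost without the 0 h sample of isolation 2. A pseudogene that shares its end, Gm5422, had 241 counts, 1.09% of those of Psmd2.

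Psmd4 and Psmd1 had the largest and the smallest fold change of these 3 genes at 12 h. Psmd4 was at 73.8 and 131 TMM CPM at 0 h, at 179, 211.4 and 211.7 at 3 h, and at 111, 170.4 and 191 at 6 h. It was at 107, 175 and 309 at 12 h, at 172, 182 and 245 at 18 h, at 183 and 292 at 24 h, and at 170.1, 199 and 216 at 96 h. Its samples at 3, 18, 24 and 96 h all lay above both samples at 0 h, yet the log2 fold change was 0.94 ± 0.39 at 12 h (adjusted p of 0.13) and 1.21 ± 0.42 at 24 h (0.107, edgeR). Psmd1 was at 149.9 and 197 TMM CPM at 0 h, at 139, 140.0 and 141 at 3 h, and at 142, 199 and 257 at 6 h. It was at 158, 236 and 317 at 12 h, at 229.5, 296 and 306 at 18 h, at 307 and 348 at 24 h, and at 239.5, 297 and 331 at 96 h. All its samples at 3 h were below and all those at 18, 24 and 96 h above both samples at 0 h, with a log2 fold change of 0.45 ± 0.29 at 12 h (adjusted p of 0.326) and 0.92 at 24 h (0.0956, edgeR). The call at 24 h stood in 5 of 19 fits without 1 sample, and its adjusted p was 0.188 with the replicate block and 0.124 with DESeq2.

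Of the 8 genes of the lid, 1 was higher at 3 h (beside 4.67% of all genes), 3 at 6 h (7.91%), 5 at 12, 18 and 24 h (9.78%, 8.67% and 6.12%) and 4 at 96 h (6.59%). From 6 h onwards, fewer lid genes passed without either sample at 0 h, and the share of all genes in those fits was not computed. The median log2 fold change of the lid at 12 h was 1.16, beside 0.91 for the other base subunits, 0.83 for the ATPases, 0.58 for the catalytic, 0.46 for the alpha and 0.34 for the structural beta subunits. At 24 h these medians were 1.35 for the lid, 1.21, 1.15, 0.66, 0.86 and 0.63. Psmd11, which clamps the lid onto the base and the core, was already higher at 3 h. Psmd11 (chr11:80428615-80473248, plus strand) was at 94.0 and 101 TMM CPM at 0 h, at 156, 199 and 265 at 3 h and at 256, 298 and 382 at 6 h. It was at 243, 261 and 299 at 12 h, at 273, 282 and 306 at 18 h, at 243 and 261 at 24 h, and at 213, 234 and 294 at 96 h. Every cultured sample lay above both samples at 0 h, and from 6 h onwards the times overlapped each other. Psmd11 had a log2 fold change of 1.08 ± 0.24 at 3 h (adjusted p of 0.0133), 1.68 ± 0.24 at 6 h (0.000259), 1.46 ± 0.24 at 12 h (0.000523) and 1.34 ± 0.24 at 96 h (0.00153, edgeR), of which the first was lost without the 0 h sample of isolation 2. Its near-identical copy Gm14048 had 13 counts beside 23056 of Psmd11.

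Psmd3, another scaffold of the lid, had the largest fold change of the lid at 12 h. Psmd3 (chr11:98682554-98695979, plus strand) was at 53.9 and 65.8 TMM CPM at 0 h, at 72.4, 80.4 and 98.5 at 3 h and at 93.5, 99.2 and 158 at 6 h. It was at 125, 159 and 226 at 12 h, at 147, 192 and 202 at 18 h, at 167 and 265 at 24 h, and at 121, 159 and 168 at 96 h. Every cultured sample lay above both samples at 0 h. Psmd3 had a log2 fold change of 0.97 at 6 h (adjusted p of 0.0764), 1.51 ± 0.33 at 12 h (0.00476) and 1.86 ± 0.35 at 24 h (0.00269, edgeR), the first lost without either sample at 0 h or isolation 1 at 6 h, with the replicate block (0.106) and with DESeq2 (0.108).

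Psmd13 had the smallest fold change of the lid at 12 h, and its 2 samples at 0 h lay farther apart, as a ratio, than those of any other subunit with counts at 0 h. It was at 20.8 and 89.9 TMM CPM at 0 h, at 27.3, 33.1 and 41.8 at 3 h, and at 23.7, 40.7 and 92.9 at 6 h. It was at 36.2, 78.2 and 92.7 at 12 h, at 93.3, 102 and 103 at 18 h, at 93.2 and 206 at 24 h, and at 20.6, 121 and 193 at 96 h. Its log2 fold change at 12 h was 0.33 ± 0.77 (adjusted p of 0.868, edgeR), and it was -0.39 without the 0 h sample of isolation 2.

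The remaining lid calls came from Psmd14, Psmd7, Psmd8 and Psmd6. Psmd14 is the metalloprotease that cuts the ubiquitin chain off, and Psmd7 its inactive partner. Psmd14 was at 36.1 and 47.7 TMM CPM at 0 h, at 29.5, 42.4 and 55.3 at 3 h, and at 37.4, 58.3 and 117 at 6 h. It was at 83.6, 105 and 115 at 12 h, at 97, 119.7 and 122 at 18 h, at 94.8 and 124 at 24 h, and at 81.2, 94.3 and 135 at 96 h. Its samples overlapped those at 0 h at 3 h and 6 h and lay above them from 12 h onwards. The log2 fold change of Psmd14 was 1.28 ± 0.43 at 12 h (adjusted p of 0.0601, edgeR) and lay between 1.28 and 1.43 from 12 h to 96 h. These calls were lost without either sample at 0 h.

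Psmd8 was at 85.5 and 114 TMM CPM at 0 h and at 206, 221 and 236 at 12 h, all above both samples at 0 h. Its log2 fold change at 12 h was 1.15 ± 0.32 (adjusted p of 0.0236, edgeR), lost without the 0 h sample of isolation 2. Psmd7 had a log2 fold change of 0.84 at 6 h, 1.18 ± 0.28 at 12 h (adjusted p of 0.00812, edgeR) and 0.88 at 24 h. The call at 12 h was lost without the same sample. Those at 6 h and 24 h stood in 10 and 5 of 19 fits without 1 sample, and their adjusted p was 0.108 and 0.155 with the replicate block and 0.092 and 0.105 with DESeq2. Psmd6 passed at 18 h only, in 9 of 19 fits without 1 sample, with an adjusted p of 0.102 with the replicate block and 0.107 with DESeq2. Psmd12 passed at no time.

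**Figure D3:**
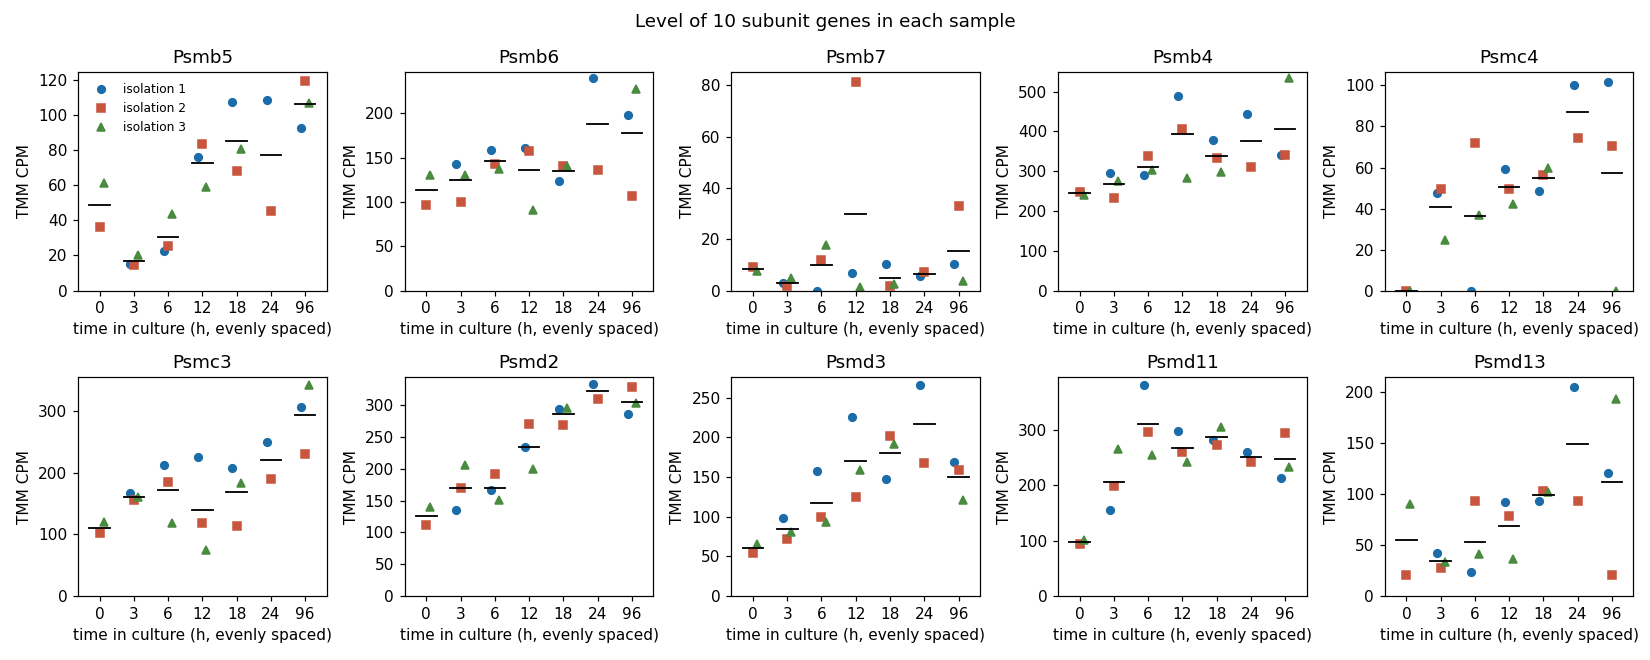
Level (TMM CPM, linear axes from 0) of 10 subunit genes in each sample against time in culture, with evenly spaced times; each marker is 1 sample, its shape and colour give the isolation and the black line is the mean of the samples. Psmd11 is near its later level by 6 h, Psmd2 and Psmd3 climb to 24 h, Psmb5 dips at 3 h, and Psmc4 is at 0 in both samples at 0 h.

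Counted over the 6 comparisons with 0 h, 12 of the 31 subunit genes were higher at no time, 8 at 1 time, 2 at 2 times, 1 at 3 times, 4 at 4 times, 2 at 5 times and 2, Psmc4 and Psmd11, at all 6 times. The same distribution over all genes tested was not computed. Because the comparisons share the samples at 0 h, repeated calls of a gene are not independent, and these numbers are a description only. The Psmc4 calls rest on its 0 counts at 0 h and ended without either of those samples, while Psmd11 lost only its call at 3 h when a sample was left out. The 12 that were higher at no time were Psma4, Psma5, Psma7, Psmb1, Psmb2, Psmb3, Psmb5, Psmb6, Psmb7, Psmd4, Psmd12 and Psmd13. A miss of the threshold does not show that these genes kept their level: at an unadjusted p under 0.05, 15 subunit genes were higher at 12 h and 19 at 18 h and at 24 h, beside 12.8%, 12.1% and 10.5% of all genes. The test of a difference between any of the 7 times was passed by 16 subunit genes, beside 27.4% of all genes tested. This count was 8 without isolation 1 at 3 h, and 10 without isolation 2 or isolation 3 at 3 h. It was also lower without the 0 h sample of isolation 2, and the share of all genes in these fits was not computed.

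**Figure D4:**
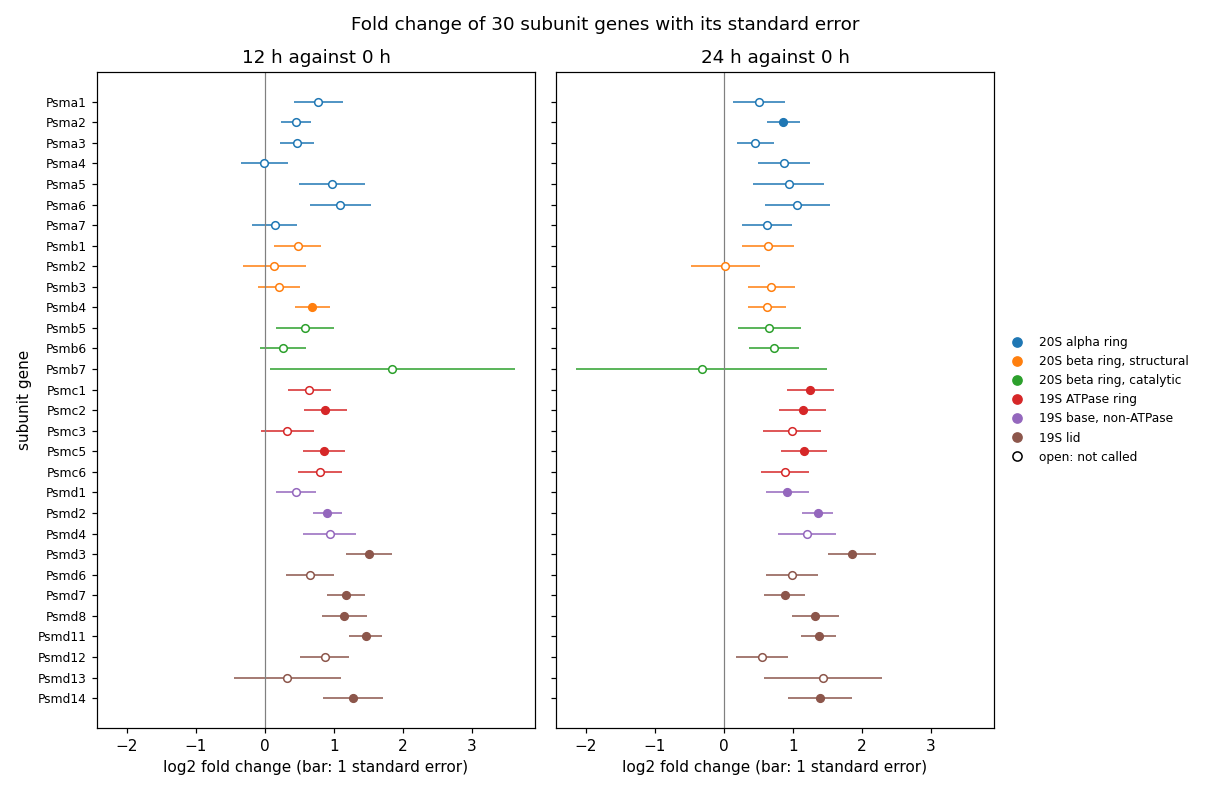
Log2 fold change at 12 h and at 24 h against 0 h of 30 subunit genes, with bars of 1 standard error on each side; filled points passed the test, colours give the group of subunits and Psmc4 is left out because it had no counts at 0 h. The lid gene Psmd3 lies farthest right among the filled points at both times, with 1.51 and 1.86, and Psmb7 has by far the widest bars.

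Between times in culture, few subunit genes passed the test. From 3 h to 6 h, Psma4 and Psmc2 were higher (2 of 31, beside 3.15% of all genes), and the median log2 fold change of the 31 genes was 0.48, beside -0.04 for all genes. Psmc2 rose by 1.00 on the log2 scale, with an adjusted p of 0.0551 (edgeR). None passed without isolation 1 or 2 of 3 h, and 1 passed without the 0 h sample of isolation 2, isolation 3 of 3 h, any sample of 6 h or either sample of 24 h. At an unadjusted p under 0.05, 9 were higher, beside 7.96% of all genes. From 6 h to 12 h, Psmb3 was higher (1 of 31, beside 0.641% of all genes), with 6 higher at an unadjusted p under 0.05 (4.85% of all genes) and 5 called by DESeq2. None passed without isolation 2 at 12 h. The median change over this interval was 0.32, beside 0 for all genes.

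From 12 h to 96 h, the subunit genes did not shift as a group. Their median log2 fold change was -0.01, beside 0.09 for all genes, and 15 of 31 had a fold change above 0, as had 52.3% of all genes. Psmc3 was higher at 96 h (1 of 31, beside 7.74% of all genes), by 1.08 ± 0.34 on the log2 scale (adjusted p of 0.0561, edgeR). The call was lost without isolation 2 or 3 at 12 h or isolation 1 or 3 at 96 h, and without isolation 1 at 12 h 2 genes were called. No subunit gene was lower in any of these 3 comparisons by edgeR, where 2.42%, 1.72% and 7.74% of all genes were lower; at an unadjusted p under 0.05, 0, 0 and 1 were lower, and DESeq2 called none.

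The subunit transcripts varied together across samples, to different degrees. Over the 19 samples, which share their libraries and the time course, the Pearson correlation of a member's log2 CPM with the mean of the other members was highest for Psmd2 (0.91), Psmd3 (0.87) and Psmc5 (0.83), and lowest for Psmb7 (0.15) and Psmb2 (0.30). Over the 465 pairs of members the median r was 0.44 and 94.6% of the pairs were positive, beside a median of 0.003 and 50.3% over all pairs of the 6725 genes with a mean of at least 20 TMM CPM. The 10 other genes whose pattern was most like the mean of the members, out of 6694 ranked, were Taldo1 (r of 0.957 over 19 samples), Rps12 (0.956), Rpl38 (0.953), Eif5a (0.942), Eef1g, Rpl11, Rplp2, Rpl6, Rpl23 and Rpl38-ps2 (0.935). Of these, 7 carry the symbol of a ribosomal protein gene or its pseudogene, Eif5a and Eef1g encode translation factors, and Taldo1 encodes transaldolase of the pentose phosphate pathway.

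The 3 catalytic subunits of the immunoproteasome, the form built in leukocytes and in cells exposed to interferon gamma, were lower at 12 h, when no standard subunit was. Of all genes tested, 9.58% were lower at 12 h. DESeq2 called 2 of the 3 lower at 12 h, beside 16.8% of all genes with an adjusted p, and the fit with the replicate block also called 2. The summed level of Psmb8, Psmb9 and Psmb10 was 247 ± 125 TMM CPM (SD, n = 2) at 0 h, and 133, 100.2, 2.29, 7.57, 32.8 and 49.1 at 3, 6, 12, 18, 24 and 96 h. Psmb9 was at 50.9 and 91.4 TMM CPM at 0 h, at 15.03, 22.8 and 28.5 at 3 h, at 10.7, 12.3 and 28.5 at 6 h, at 0 and 10.3 at 24 h, and had no counts in any sample at 12, 18 or 96 h. It was at least 133-fold lower at 12 h than at 0 h, with the 12 h samples set at 3 counts (adjusted p of 0.00746, edgeR), at least 118-fold lower at 18 h and at least 110-fold lower at 96 h, and the call at 12 h stood whichever sample was left out. Psmb10 was at 108 and 128 at 0 h and at 0, 0 and 3.94 at 12 h (adjusted p of 0.0562, edgeR). This call was lost without either sample at 0 h or isolation 2 or 3 at 12 h. Psmb8 was at 0 and 116 at 0 h and at 0, 0 and 2.94 at 12 h (adjusted p of 0.0989), a call lost in 14 of the 19 fits without 1 sample and with the replicate block (0.151). The summed level of the 9 Kupffer cell and leukocyte markers was 359 ± 28.1 at 0 h and 242, 23.8, 13.5 and 15.8 at 3, 6, 12 and 96 h. At 96 h 8 of the 9 were at 0, among them Cd3e and Cd79a, which had no counts at 0 h either. The part of these cells in the values of the immunoproteasome genes was not tested.

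**Figure D5:**
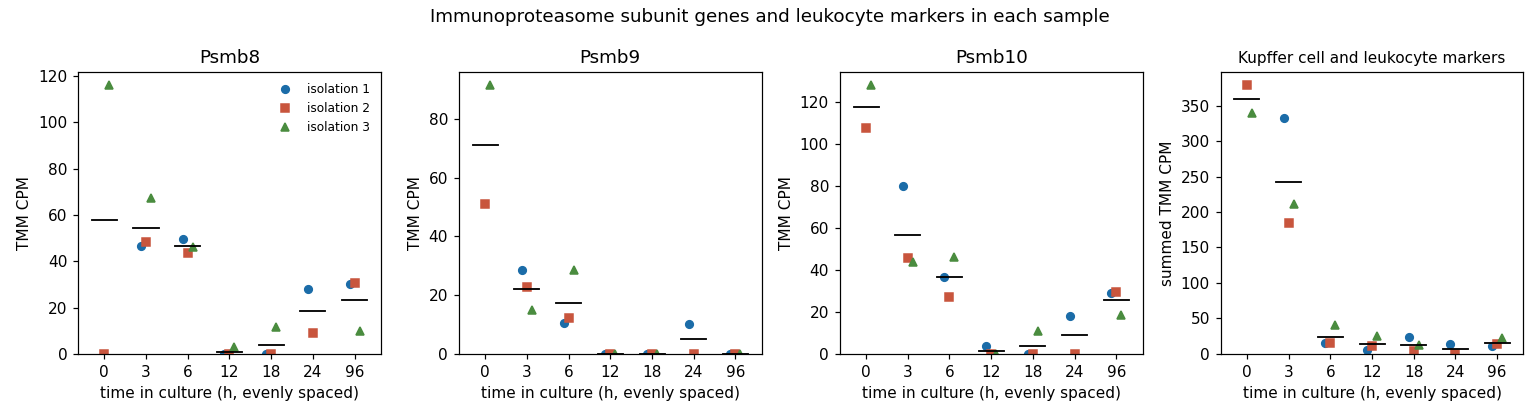
Level (TMM CPM, linear axes from 0) of the immunoproteasome genes Psmb8, Psmb9 and Psmb10 and summed level of 9 Kupffer cell and leukocyte markers in each sample against time in culture, with evenly spaced times; each marker is 1 sample, its shape and colour give the isolation and the black line is the mean of the samples. At 12 h, no sample exceeds 3.94 for any of the 3 genes. The mean marker sum is 23.8 at 6 h and 13.5 at 12 h, and the mean sum of the 3 genes is 100.2 and 2.29. The part of the marked cells in these values was not tested.

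Other genes of the ubiquitin-proteasome pathway, 39 of 40 listed in the table, were counted in the same fit at 12 h and 96 h. Of all genes tested, 9.78% were higher and 9.58% lower at 12 h, and 6.59% and 5.44% at 96 h. These shares stand beside every list below, and the short lists are descriptions only. Among 5 genes of the 11S and PA200 activators and PI31, 1 was higher and 1 lower at 12 h, and 0 and 1 at 96 h. Psme1, a subunit of the interferon-inducible 11S cap, was at 94.9 and 160.2 TMM CPM at 0 h and at 17.1, 25.2 and 37.2 at 12 h, and it fell by 2.26 on the log2 scale (adjusted p of 0.00312, edgeR). Psme3, which forms the nuclear 11S cap, was at 42.7 and 63.2 at 0 h and at 165, 166 and 189 at 12 h, 1.71 higher on the log2 scale (adjusted p of 0.00304). Psme1 and Psme3 thus changed in opposite directions, with no overlap with the samples at 0 h for either gene. Psme2, the partner of Psme1, was not called at 12 h, and its test of any difference between the 7 times gave an adjusted p of 0.492.

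Of 8 assembly chaperones, 2 were higher at 12 h (Pomp and Psmg1), and 2 were higher (Pomp and Psmd5) and 1 lower (Psmg2) at 96 h. The shares of all genes were 9.78% higher at 12 h, and 6.59% higher and 5.44% lower at 96 h. Pomp, which guides assembly of the beta rings, had a log2 fold change of 0.58 at 12 h (adjusted p of 0.094) and 1.10 at 96 h (0.00401, edgeR). The call at 12 h stood in 4 of 19 fits without 1 sample, and its adjusted p was 0.148 with the replicate block and 0.211 with DESeq2. With the block, Psmg2 at 96 h had an adjusted p of 0.119. Psmg1 had no counts at 0 h and was at least 26.8-fold higher at 12 h, set against 3 counts per library (adjusted p of 0.0621, edgeR). This call was lost without either sample at 0 h. Its test of a difference between any of the 7 times was not passed (adjusted p of 0.329, edgeR). What its zeros stand for could not be told from the table. Psmd5, a chaperone of the base that leaves before the particle is complete, was at 30.6 and 45.9 TMM CPM at 0 h, at 20.7, 27.8 and 52.6 at 12 h, at 64.4 and 79.8 at 24 h and at 266, 272 and 276 at 96 h. Its 96 h samples lay above all its other samples, 2.82 ± 0.52 above 0 h on the log2 scale (adjusted p of 0.00202, edgeR), a call kept in all 19 fits without 1 sample.

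Of 4 genes of p97 and its cofactors, 3 were higher at 12 h (Vcp, Nploc4 and Ufd1) and 2 at 96 h (Vcp and Ufd1). The share of all genes that was higher was 9.78% at 12 h and 6.59% at 96 h. Vcp, the p97 segregase that extracts ubiquitinated proteins and hands them to the proteasome, was at 228 and 304 TMM CPM at 0 h, at 553, 572 and 625 at 3 h, at 478, 506 and 560 at 12 h, and at 557, 772 and 792 at 96 h. All these samples lay above both samples at 0 h, and the log2 fold change was 1.13 at 3 h (adjusted p of 0.00429), 0.95 at 12 h (0.0053) and 1.41 at 96 h (0.000362, edgeR). Of 6 shuttle factors, 1 was higher at 12 h and at 96 h: Rad23b, which carries ubiquitinated proteins to the 19S particle, at 68.7 and 89.4 at 0 h and at 231, 260 and 306 at 12 h, a log2 fold change of 1.75 (adjusted p of 0.000311). Of 2 deubiquitinases bound to the proteasome, Usp14 was higher at 12 h by 0.98 (adjusted p of 0.0579) and none at 96 h, and of 2 further 19S subunits none was called at either time, at an unadjusted p under 0.05 or by DESeq2.

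Of 6 genes of ubiquitin and its activating enzymes, 2 were higher and 1 lower at 12 h, and 3 were higher and 1 lower at 96 h. Beside these stand 9.78% higher and 9.58% lower of all genes at 12 h, and 6.59% and 5.44% at 96 h. Rps27a, which encodes ubiquitin fused to a ribosomal protein, was 1.22 higher on the log2 scale at 12 h (adjusted p of 0.00116) and Uba1, the main activating enzyme, 0.96 (0.0724, edgeR, and 0.13 with the replicate block), while Ubb, a polyubiquitin gene, fell by 0.77 (0.0124).

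Among 3 regulators of proteasome genes, 2 were higher at 12 h and none at 96 h, at an unadjusted p under 0.05 or by DESeq2. The share of all genes called higher by edgeR was 9.78% at 12 h and 6.59% at 96 h. Nfe2l1, the factor that raises subunit transcription when proteasome activity falls short, was at 89.3 and 126 TMM CPM at 0 h, at 123, 189 and 230.0 at 3 h, at 174, 253 and 335 at 12 h, and at 52.0, 115 and 122 at 96 h. At 12 h it was above both samples at 0 h, with a log2 fold change of 1.24 ± 0.39 (adjusted p of 0.0461, edgeR). This call was lost without either sample at 0 h or isolation 1 at 12 h. From 12 h to 96 h, Nfe2l1 had a log2 fold change of -1.40 (adjusted p of 0.0132, edgeR), a call kept in all 19 fits without 1 sample. Nfe2l2, the regulator of oxidative stress genes, was at 225 and 290 at 0 h, at 616, 643 and 850 at 3 h, at 404, 411 and 517 at 12 h, and at 182, 213 and 240 at 96 h. Its log2 fold change was 1.45 at 3 h (adjusted p of 0.00168) and 0.79 at 12 h (0.0345, edgeR). The call at 3 h was kept in all 19 fits without 1 sample. That at 12 h was lost without isolation 2 at 0 h or isolation 1 at 12 h. At 96 h the samples of both regulators overlapped those at 0 h, and the summed level of the subunits was 1.74 times that at 0 h. Only RNA was measured, and a link between these regulators and the subunit levels was not tested.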

How the data were processed

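RNASeq counts of 19 samples of mouse HSCs were used. The authors prepared 3′ libraries (QuantSeq 3′ FWD), mapped reads to mm10 with STAR, used StringTie and deposited raw counts per gene, whole numbers without normalization; the counting tool, its strand setting and the annotation release are not given in the sources used here. Reads of a gene and an antisense partner may therefore be mixed, and 8 of the 31 subunit genes are uncertain because the last 300 bases of a transcript match another gene over at least 100 bases at 95% identity or more (BLAST 2.17.0).

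After filterByExpr and TMM scaling, counts of all 19 samples entered 1 fit of edgeR 4.0.16 (R 4.3.3) with time as the only factor, and contrasts were taken with its quasi-likelihood test. p-values were adjusted over all 15138 genes by Benjamini-Hochberg, with 0.1 as the threshold of a call. Levels are TMM CPM; log2 CPM used a prior count of 2. Within isolations, a pseudocount of 1 CPM was added. A fold against samples without counts is a bound against 3 counts per library, averaged over the group. No molecular identifiers were read, so such bounds cover counting error only. Groups were taken from the labels, with the M number, called isolation here, as the replicate. The p-values measure the spread between samples with different M numbers, of which M1 and M3 share an isolation date. Whether isolation numbers pair samples was checked from the deviations from the time means: same-numbered samples correlated with a mean r of 0.0143 (51 pairs), others with -0.00704 (103 pairs), and the main fit has no block. Since same-numbered samples carry the same M number and isolation date in the labels, the blocked value is given where it ends a call of a gene described.

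The subunits, pathway lists and markers were chosen with earlier results of these data known. Genes with a value in every sample are the catalytic subunits and, in each other group of subunits, those with the largest and smallest log2 fold change at 12 h; pathway genes called at 12 h or 96 h may be named. Genes outside this rule are named as such. Alternatives were DESeq2 1.42.0, other scaling, no filter, a replicate block, the isolation date, fits of the 2 groups compared, thinned counts, other thresholds and leaving out each sample. The edgeR steps were tested on simulated data. Promoters come from RefSeq (GRCm38.p6) and gene positions from GENCODE M21 (GRCm38). Limma 3.58.1, pandas 2.3.3 and matplotlib 3.10.9 (Python 3.11.15) were also used.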

Additional observations from a re-analysis of the deposited data

How the results depend on the processing

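Alternatives that keep all samples gave 169 counts of called subunit genes, of which 63 were 0 both as reported and under the alternative; of the other 106, 72 were within 1.5 times the reported count. Leaving out 1 sample gave 361 counts, 133 of them 0 in both, and 168 of the other 228 were within 1.5 times. Higher at 3 h: 1 with the isolation date and 1 at an adjusted p under 0.05; lower at 3 h: 0 without the filter and 0 in fits of the 2 groups. Higher at 6 h: 4 with DESeq2, 2 without the filter, 3 with the 2 groups, 4 with thinned counts, 1 at 0.05 and 2 at a fold over 2; lower: 0 with the 2 groups. At 12 h: 6 without the filter, at 0.05 or at a fold over 2. At 18 h: 21 with library size only, 6 without the filter and 7 at 0.05. At 24 h: 19, 6 and, with the 2 groups, 7. At 96 h: 6 at 0.05. From 3 h to 6 h: 5 with library size only, 0 without the filter, 0 at 0.05 and 1 at a fold over 2. From 6 h to 12 h: 5 with DESeq2, 2 with the date and 0 with the 2 groups. From 12 h to 96 h: 2, 0 with the 2 groups and 0 at 0.05. Of all genes with an adjusted p, DESeq2 called 12.2% higher at 6 h, 4.26% from 6 h to 12 h and 14.1% from 12 h to 96 h. With library size only, these shares were 11.3% at 18 h, 8.88% at 24 h and 4.14% from 3 h to 6 h. For the other alternatives and the fits without 1 sample, beyond the fold over 2 given above, the share was not computed. The cause of the differences was not tested, beyond fewer samples or a stricter rule by construction.

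With the isolation number as a replicate block the counts of higher genes were 1, 2, 8, 11, 8 and 8 at 3, 6, 12, 18, 24 and 96 h, and 3, 2 and 1 between times in culture. Under this block Psma7 had a log2 fold change of -0.028 at 12 h.

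Leaving out each sample in turn gave, for the 6 times against 0 h in order, 0 to 2, 1 to 7, 2 to 11, 3 to 13, 4 to 13 and 2 to 9 higher genes (lower 0 to 1 at 3 h and 6 h), 0 to 3 from 3 h to 6 h, 0 to 1 from 6 h to 12 h, 0 to 2 from 12 h to 96 h, and 8 to 18 at any time.

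At 12 h, 7 subunits that were not called changed sign. Psma4 was at 0.10 with library size only and 0.011 with the 2 groups; Psma7 was at -0.082, Psmb2 at -0.079 and Psmb3 at -0.021 with DESeq2, and Psmb2 at -0.0078 with thinned counts. Without 1 sample, the ranges were -0.45 to 0.21 for Psma4, -0.17 to 0.28 for Psma7, -0.22 to 0.57 for Psmb2, -0.025 to 0.45 for Psmb3, -1.02 to 2.41 for Psmb7, -0.21 to 0.63 for Psmc3 and -0.39 to 1.71 for Psmd13.

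With library size only, the median of all genes shifted to 0.08, 0.24 and 0.22 at 18, 24 and 96 h, and the members' median exceeded it by 0.98, 0.95 and 0.66. Of all calls at 24 h, 59.9% were higher with TMM, 72.1% with library size only and 48.7% with DESeq2. Psmb7 had 38 counts over the 3 samples at 3 h, which limits the precision of its values.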
